A study of Mus musculus with 8 samples.

Results

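The genes described are the histone genes that the array could read singly, the replication-dependent genes of the histone clusters and the histone variants, in PD-1hi CD8 T cells after blockade of the interleukin 10 receptor (IL-10R). They were taken by symbol, from every row of the deposited table that lists exactly 1 gene whose symbol begins as a histone gene's does (H1f, H2ac, H2bc, H3c, H4c, H2ax, H2az, H3f3 or macroH2A, or the older forms). Where a gene had several rows, the brightest was kept. This gave 35 genes of the 22180 that have a row of their own, of which 26 belong to the replication-dependent clusters and 9 are variants or linker histones outside the clusters. No cluster gene of histone H3 is among them, nor are H1f0, H1f4, H3f3a and H3f3b, because none of these has a row here that lists it alone.

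Female mice of the strain that the protocols give as C57BL/6 carried transplanted cells from Eµ-TCL1 mice, whose TCL1 transgene, active in B cells, gives rise to a disease like chronic lymphocytic leukaemia. From week 3 after transplantation they received either an antibody that blocks IL-10R or its isotype control, for 2 weeks per the series text, and at week 5 effector CD8 T cells were sorted from the spleen. Both groups carried the leukaemia, and no array comes from mice without an antibody or without leukaemia, so the isotype group is the control. Sorting kept lineage-negative cells with the beta chain of the T cell receptor and CD8 on their surface that were low in CD127, intermediate to high in CD44 and high in PD-1. RNA of each sample was read on 1 Mouse Gene 2.0 ST array, 4 arrays per group. The question is how blockade of the receptor changed gene expression in these cells, here for the genes that make the histones.

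Histones are the proteins around which DNA is wound. Pairs of H2A, H2B, H3 and H4 form the core of the nucleosome, and H1 binds the linker DNA between cores. Replication-dependent histone genes lie in clusters as many near-identical copies and are transcribed almost only in S phase, when new DNA must be packaged; their messenger RNAs end in a stem-loop in place of a poly(A) tail. Variant genes such as H2ax, H2az1 and those of H3.3 and macroH2A lie alone, can be made outside S phase and mark particular kinds of chromatin. In T cells, histone RNA of the cluster genes rises as cells enter division.

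Cluster genes of the H1, H2A, H2B and H4 families were among those that fell after IL-10R blockade. Of the 26 measured, 16 were bright enough to be tested, with a mean over the 8 arrays of at least 5.24 on the deposited log2 scale, the median of all rows. Among these, 10 fell, none rose and 6 did not pass the threshold (limma, adjusted p below 0.05 over all 12019 tested genes). Over all tested genes, 1.3% fell and 1.23% rose, 2.53% in either direction. The median difference, anti-IL-10R minus isotype, was −0.68 over the 16 tested cluster genes and −0.48 over the 26 measured, beside 0.03 over all tested genes. In 11 of the 16 every anti-IL-10R array lay below every isotype array, which held for 5.99% of all tested genes. Among the 9 variants, 5 were tested and 1 fell, H2ax. Their median difference was −0.16 over the tested and −0.03 over all 9. H1f1 and H1f8 lay above the limit only through the isotype arrays, with anti-IL-10R means of 5.15 and 5.18, so their place among the tested genes depends on the group in which they were higher. Without H1f1, 9 of 15 tested cluster genes fell, with a median of −0.63. In RNA of a sorted population, fewer cells in S phase and less histone RNA per cell cannot be told apart.

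**Figure D1:**
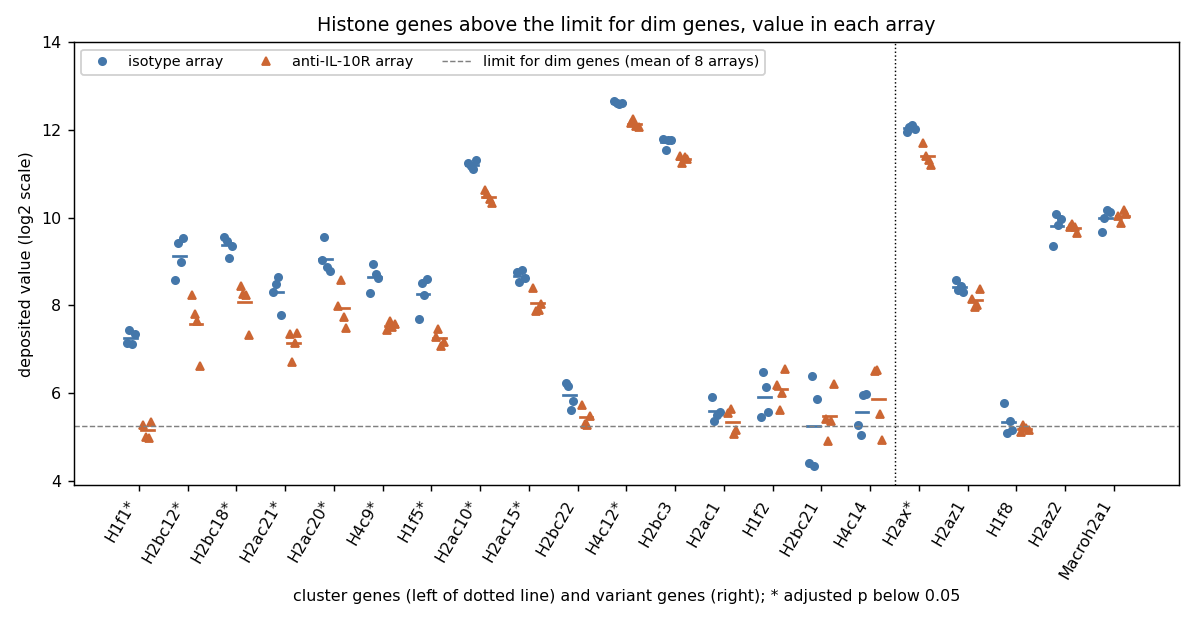
Deposited log2 value (vertical axis) of the 21 histone genes at or above the limit for dim genes, with circles for the 4 isotype arrays, triangles for the 4 anti-IL-10R arrays and short lines for group means; an asterisk marks an adjusted p below 0.05 and the dashed line is the limit of 5.24. The groups do not touch in the 11 marked genes or in H2bc3, and the distance between them is widest for H1f1.

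Isotype replicate 1 stood apart from the other arrays. Over the tested genes it correlated with them at Pearson's r of 0.915 to 0.929 across genes, which are not independent replicates, and the other 7 correlated with one another at 0.962 to 0.986. It also held a Foxp3 value of 7.97, a gene of regulatory T cells, whereas the other isotype arrays read 5.46 to 5.95 and the anti-IL-10R arrays 5.08 to 5.64. Without it, the same fit again called 10 cluster genes and 1 variant lower, the same 11 genes, with 5.9% of all tested genes called lower. The median over the tested cluster genes was then −0.66, and that over all tested genes −0.01.

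The number of calls depended on single arrays. It was 2 cluster genes without isotype replicate 2, 3 without isotype replicate 3 and 1 without isotype replicate 4. It was 4 without anti-IL-10R replicate 1 and 1 each without anti-IL-10R replicates 2, 3 and 4. The share of all tested genes called lower moved with it, to 0.183%, 0.2%, 0.00832%, 0.316%, 0.0499%, 0.0416% and 0.0499% in the same order. H1f1 was called in all 8 of these fits, H4c9 in 4, H2ac10 in 3, H2ac15 and H2ax in 2 each, and the other 6 only without isotype replicate 1. The median difference of the tested cluster genes lay between −0.77 and −0.65 in all 8.

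The promoters of cluster genes share short elements that the choice of the genes did not use. A window from 250 bases before to 50 after the start of the gene was given for 24 of the 26 cluster genes and for 7 of the 9 variants in RefSeq's annotation of GRCm38.p6. Shown are the 150 bases before the start of 6 cluster genes that fell, from each family measured, and of H1f2, a linker histone gene that did not pass. They are written 5′ to 3′ on the strand of the gene. Capitals mark the CCAAT box (read as ATTGG on the other strand), the H1 box AAACACA, the octamer ATTTGCAT and the E2F site TTTCGCGC. They also mark TATAAA, the letters of the TATA box, at whatever position they occur. These positions are RefSeq's; the build behind the array's own probe positions is not named in the sources used here.
H1f1, chr13:23763518-23763667, + strand: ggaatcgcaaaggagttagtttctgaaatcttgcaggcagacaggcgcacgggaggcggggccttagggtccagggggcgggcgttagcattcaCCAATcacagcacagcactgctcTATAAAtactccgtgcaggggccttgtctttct
H1f5, chr13:21780626-21780775, - strand: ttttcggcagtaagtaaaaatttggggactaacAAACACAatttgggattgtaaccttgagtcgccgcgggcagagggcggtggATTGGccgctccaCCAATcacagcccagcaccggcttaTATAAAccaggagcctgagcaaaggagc
H1f2, chr13:23738657-23738806, + strand: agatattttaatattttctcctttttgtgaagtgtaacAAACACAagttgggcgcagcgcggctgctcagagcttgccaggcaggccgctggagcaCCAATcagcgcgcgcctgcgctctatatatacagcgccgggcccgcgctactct
H2ac10, chr13:23533725-23533874, + strand: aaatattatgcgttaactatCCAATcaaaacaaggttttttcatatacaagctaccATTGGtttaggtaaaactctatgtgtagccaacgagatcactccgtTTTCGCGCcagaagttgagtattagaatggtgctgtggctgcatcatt
H2bc18, chr3:96269550-96269699, + strand: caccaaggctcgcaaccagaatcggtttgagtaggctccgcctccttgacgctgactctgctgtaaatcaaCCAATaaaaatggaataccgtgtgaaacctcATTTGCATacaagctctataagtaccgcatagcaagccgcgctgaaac
H2bc12, chr13:22035671-22035820, + strand: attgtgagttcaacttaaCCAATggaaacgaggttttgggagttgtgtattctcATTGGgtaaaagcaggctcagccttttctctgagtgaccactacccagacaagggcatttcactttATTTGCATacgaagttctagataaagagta
H4c9, chr13:22041363-22041512, - strand: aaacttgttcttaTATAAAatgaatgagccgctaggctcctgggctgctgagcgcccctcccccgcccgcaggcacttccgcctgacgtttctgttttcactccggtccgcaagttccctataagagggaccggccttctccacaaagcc

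The CCAAT box occurs in 19 of the 24 cluster windows (79.2%), against 37.4% of the 32851 windows in the table. TATAAA occurs in 16 (66.7%), against 13.6%. The octamer, known from H2B promoters, occurs in 8 windows (33.3%) against 1.74%, and 5 of these are among the 7 H2B windows. Of the H1 box, known from linker histone promoters, 7 windows (29.2%) hold a copy, against 7.18%, including 4 of 5 H1 windows; H1f1 is the H1 gene without it. TTTCGCGC was found in 4 windows (16.7%) against 0.323%, and the form TTTGGCGC in 0 of 24 against 0.514%. In the 7 variant windows, CCAAT occurs in 4 and the other motifs in none. Both strands were searched, no motif is contained in another, and 2 pairs of divergent genes share most of a window (277 bases of H2ac12 and H2bc12, 220 of H2ac1 and H2bc1), so their windows are not separate. Cluster genes that fell and tested cluster genes that did not both held the elements. The CCAAT box stood in 8 of 10 and 4 of 4, TATAAA in 8 of 10 and 3 of 4, the octamer in 3 of 10 and 2 of 4, and the H1 box in 1 of 10 and 2 of 4. TATAAA was counted at any position in the window. Among the genes that fell, it began 16 to 42 bases before the start in H1f1, H1f5, H2ac20, H2ac21 and H4c12. In H4c9 it began 137 bases before the start. In H2bc12 it lay on the other strand, at 198 bases before the start, and in H2ac15 after the start (−21). Such a match need not be a TATA box. A match describes letters in a window and not a bound site.

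Linker histones differed among themselves. H1f1 encodes H1.1, a linker subtype found in few tissues, among them the thymus. In isotype replicates 1 to 4 it read 7.15, 7.44, 7.12 and 7.35, and in anti-IL-10R replicates 1 to 4 it read 5.27, 5.01, 4.97 and 5.35. All the isotype arrays lay well above all the anti-IL-10R arrays. H1f1 fell by 2.12 ± 0.13 (SE, n = 4 per group), which is 4.34-fold (95% CI 3.54 to 5.32, limma adjusted p = 0.000346). By p it ranked 1 of the 12019 tested genes. Its anti-IL-10R mean of 5.15 ± 0.19 (SD) was under the limit for dim genes, which leaves the size of the fall uncertain. Against the limit itself the isotype mean was 4.07-fold higher.

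H1f5 encodes H1.5, a subtype made mainly in dividing cells. Its isotype values were 7.70, 8.51, 8.24 and 8.61, and its anti-IL-10R values 7.27, 7.47, 7.08 and 7.17. The lowest isotype array, replicate 1, was still above every anti-IL-10R array. H1f5 fell by 1.01 ± 0.20 (2.02-fold, 95% CI 1.49 to 2.74, adjusted p = 0.0369), and by 1.20 without isotype replicate 1. H1f2, which encodes the widely made subtype H1.2, read 5.46, 6.48, 6.13 and 5.56 in the isotype and 6.19, 5.62, 6.00 and 6.56 in the anti-IL-10R arrays. These overlapped, with a difference of 0.18 ± 0.26 (adjusted p = 0.74) and a 95% interval from −0.40 to 0.77. H1f3, of the subtype H1.3, had a mean of 5.07 and lay just below the limit for dim genes; it differed by 0.07 ± 0.18 with overlapping groups. H1f6, the testis linker histone, was dim and differed by 0.23 ± 0.13. The H1f1 and H1f2 genes lie in the same block of the chromosome 13 cluster.

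In the H2A family, 4 of the 5 tested cluster genes fell. H2ac21 read 8.30, 8.48, 8.64 and 7.79 in the isotype arrays and 7.35, 6.70, 7.13 and 7.38 in the anti-IL-10R arrays. Its isotype replicate 4 was the lowest of the control values and lay above all the treated arrays. H2ac21 fell by 1.16 ± 0.21 (2.24-fold, 95% CI 1.61 to 3.11, adjusted p = 0.0331). It is the only histone gene here with a dimmer second row of its own, which differed by −0.44 ± 0.10 at a mean of 3.69. H2ac20 gave 9.05, 9.56, 8.87 and 8.78 against 7.99, 8.57, 7.74 and 7.48. Anti-IL-10R replicate 2 came near the lowest isotype array without reaching it. H2ac20 fell by 1.12 ± 0.25 (2.18-fold, 95% CI 1.48 to 3.19, adjusted p = 0.0491).

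H2ac10 was among the brighter members. Its isotype values were 11.24, 11.18, 11.11 and 11.31 and its anti-IL-10R values 10.63, 10.54, 10.42 and 10.32. The arrays of each group lay close together, and the fall of 0.73 ± 0.11 (1.66-fold, 95% CI 1.40 to 1.97, adjusted p = 0.0205) had a smaller SE than those of H2ac20 and H2ac21. H2ac15 read 8.77, 8.52, 8.81 and 8.62 against 8.39, 7.87, 7.89 and 8.03. Anti-IL-10R replicate 1 was the highest of its group and stayed below every isotype array. H2ac15 fell by 0.63 ± 0.14 (1.55-fold, 95% CI 1.25 to 1.93, adjusted p = 0.0491). H2ac1, a gene of the testis type, differed by −0.24 ± 0.17 with overlapping groups (adjusted p = 0.469). H2ac12 was dim in all arrays.

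In the H2B family, 2 of the 5 tested genes fell. H2bc12 read 8.58, 9.42, 9.0 and 9.55 in the isotype arrays and 8.23, 7.81, 7.63 and 6.62 in the anti-IL-10R arrays. Anti-IL-10R replicate 4 was the lowest by a wide margin, and the distance between the nearest arrays of the groups was small. H2bc12 fell by 1.56 ± 0.33 (2.96-fold, 95% CI 1.76 to 4.96, adjusted p = 0.0463). H2bc18, of the chromosome 3 cluster, read 9.57, 9.48, 9.07 and 9.36 against 8.44, 8.27, 8.24 and 7.32. Here too anti-IL-10R replicate 4 was the lowest. H2bc18 fell by 1.30 ± 0.23 (2.46-fold, 95% CI 1.71 to 3.54, adjusted p = 0.0316).

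The 3 other tested H2B genes did not pass. H2bc3 had groups that did not overlap, with isotype values of 11.55 to 11.79 and anti-IL-10R values of 11.24 to 11.40, and differed by −0.38 ± 0.10 (adjusted p = 0.0835). H2bc22 differed by −0.51 ± 0.17 (adjusted p = 0.131). H2bc21 varied widely within the groups, from 4.33 to 6.39 and from 4.92 to 6.21, and differed by 0.22 ± 0.47 (adjusted p = 0.837); the sign turned in 3 of the 8 fits without 1 array. H2bc3 and H2bc22 lie outside the rule for named genes and are given after their values were seen.

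Histone H4 is made from several genes that encode the same protein. H4c9 read 8.27, 8.94, 8.72 and 8.63 in the isotype arrays and 7.44, 7.64, 7.51 and 7.57 in the anti-IL-10R arrays. The anti-IL-10R arrays lay within a narrow range below all the isotype arrays. H4c9 fell by 1.10 ± 0.14 (2.14-fold, 95% CI 1.71 to 2.68, adjusted p = 0.017). H4c12 read 12.67, 12.61, 12.60 and 12.61 against 12.17, 12.26, 12.09 and 12.07. Both groups were tight, and the fall of 0.48 ± 0.10 (1.39-fold, 95% CI 1.20 to 1.61, adjusted p = 0.0387) was the smallest among the cluster genes that passed. H4c14 differed by 0.31 ± 0.37, with 5.04 to 5.97 over the isotype arrays and 4.93 to 6.52 over the anti-IL-10R arrays (adjusted p = 0.691).

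**Figure D2:**
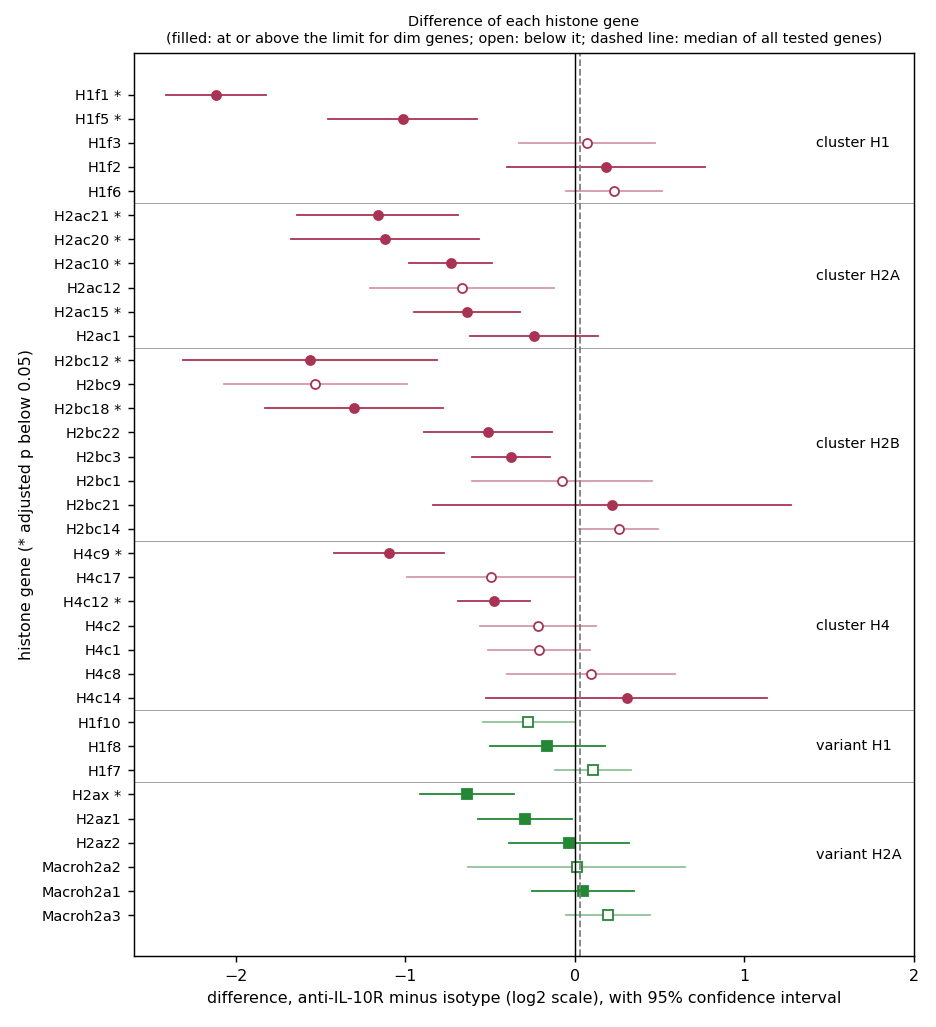
Difference of each of the 35 histone genes (horizontal axis, anti-IL-10R minus isotype, log2 scale) with its 95% confidence interval, grouped by class and family; filled points were tested, open points were below the limit for dim genes, circles are cluster genes and squares variants. The differences of the cluster genes that passed run from −2.12 for H1f1 to −0.48 for H4c12, and of the variants H2ax, at −0.64, passed.

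Below the limit for dim genes lay 10 cluster genes, with means from 2.55 to 5.07, and 4 variants. At such levels a gene that is not expressed and a gene at low level cannot be told apart. Groups were apart with anti-IL-10R lower in 3 of the 10, H2bc9, H2ac12 and H4c17, which held for 3.07% of all genes below the limit, and with anti-IL-10R higher in 1, H2bc14, which held for 1.36%. H2bc9 read 4.52, 4.76, 4.99 and 4.66 in the isotype and 3.75, 2.54, 2.98 and 3.53 in the anti-IL-10R arrays. It differed by −1.53 ± 0.24, and in a fit over all 22180 genes without the limit its adjusted p was 0.0307. In that fit 6 cluster genes were called lower, H2bc9 and 5 of the 10 above, with 0.352% of all genes called lower. H2ac12 and H4c17 differed by −0.67 and −0.49 and H2bc14 by 0.26, and none of these passed without the limit. The other dim cluster genes, H1f3, H1f6, H2bc1, H4c1, H4c2 and H4c8, differed by −0.22 to 0.23 with overlapping groups. These dim genes, other than H1f3 and H1f6, were named after their values were seen.

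Genes that fell came from each of the measured blocks of the clusters. A block here is a run of measured cluster genes with fewer than 20 other genes between neighbours in RefSeq's order. On chromosome 13, the first block held 6 measured genes, of which 4 were tested and 3 fell (H1f5, H2ac15 and H4c12). In the second, 2 of 2 tested genes fell, H2bc12 and H4c9. In the third, the longest with 12 measured genes, 5 were tested and 2 fell, H1f1 and H2ac10. On chromosome 3, all 5 measured genes were tested and 3 fell (H2ac20, H2ac21 and H2bc18). Neighbours within a block therefore differed in call, for instance H2bc18, which fell, and H2bc21 and H4c14, whose groups overlapped.

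Of the variants, 1 passed. H2ax encodes H2A.X, the variant that is phosphorylated at DNA breaks; unlike most variants, its gene also gives a stem-loop RNA in S phase. It read 11.97, 12.06, 12.11 and 12.03 in the isotype and 11.69, 11.41, 11.31 and 11.21 in the anti-IL-10R arrays. No anti-IL-10R array reached an isotype array, and anti-IL-10R replicate 1 was the nearest. H2ax fell by 0.64 ± 0.12 (1.55-fold, 95% CI 1.28 to 1.88, adjusted p = 0.0371). H2az1 and H2az2 encode the 2 forms of H2A.Z, a variant placed at promoters. H2az1 read 8.57, 8.36, 8.44 and 8.30 against 8.14, 7.96, 8.01 and 8.38, so that anti-IL-10R replicate 4 lay within the isotype range. Its difference was −0.30 ± 0.12 (adjusted p = 0.225).

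H2az2 differed by −0.03 ± 0.16 (adjusted p = 0.931), with a 95% interval from −0.39 to 0.32. Without isotype replicate 1, which was low at 9.35 against 9.83 to 10.07, it differed by −0.19. Macroh2a1, which encodes the macroH2A variant with a large added domain, differed by 0.05 ± 0.13 (adjusted p = 0.874), with a 95% interval from −0.25 to 0.35. Isotype replicate 1 was again low, at 9.68 against 9.99 to 10.18, and the difference was −0.05 without it. Of the related genes, Macroh2a2 differed by 0.01 ± 0.29 and Macroh2a3 by 0.19 ± 0.11, both below the limit for dim genes. Macroh2a3 is annotated as a transcribed pseudogene and is counted among the 9 variants. The linker histones outside the clusters, H1f8 of the oocyte, H1f7 of spermatids and H1f10 of somatic cells, differed by −0.16 ± 0.15, 0.11 ± 0.10 and −0.27 ± 0.12 with overlapping groups. H1f8 lay just above the limit for dim genes, at a mean of 5.26 (adjusted p = 0.601), and H1f7 and H1f10 lay below it.

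Histone H3 could be read only in rows shared by several genes. Of the table's rows, 45 list several genes of which at least 1 is a histone gene, and 3 of them repeat the values of another row exactly and were counted once, which leaves 42. Fitted with all 20673 rows of the table at or above the limit, a fit chosen after the data were seen, 23 of the 42 were tested and 2 were called lower, with 0.223% of all rows called lower. Without isotype replicate 1 the count was 6, with 1.75% of all rows. With each array left out in turn the count ranged from 0 to 6. The share of all rows in the other fits of this kind is not given. A row that lists 8 H3 genes read 7.35, 7.45, 7.47 and 7.49 in the isotype and 6.90, 6.81, 6.87 and 6.73 in the anti-IL-10R arrays. The groups were apart, and the row fell by 0.61 ± 0.09 (limma adjusted p = 0.0452). The SE of each shared row comes from a limma fit of all 41345 rows without the limit. Its adjusted p comes from the fit with the limit. The other tested H3 row, of 4 genes, differed by −0.72 ± 0.13 (adjusted p = 0.0651) with groups apart, and 10 H3 rows were dim. The other row that fell lists 10 H2A genes and went from 9.24, 9.29, 9.67 and 9.51 to 8.66, 8.26, 8.46 and 8.28, a fall of 1.01 ± 0.14 (adjusted p = 0.04). Over the shared rows of cluster genes, 15 of 16 tested differed below 0 and 10 had groups apart with anti-IL-10R lower, which held for 5.31% of all rows.

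H3.3, the variant that replaces H3 outside replication, lies in 7 shared rows, all tested. The 2 brightest had isotype values from 12.10 to 12.23 and anti-IL-10R values from 12.09 to 12.20, overlapping almost wholly. They differed by −0.02 ± 0.09 and −0.01 ± 0.09. Over the 7 rows the differences ran from −0.47 to 0.22 with a median of −0.02, all had overlapping groups and none passed.

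**Figure D3:**
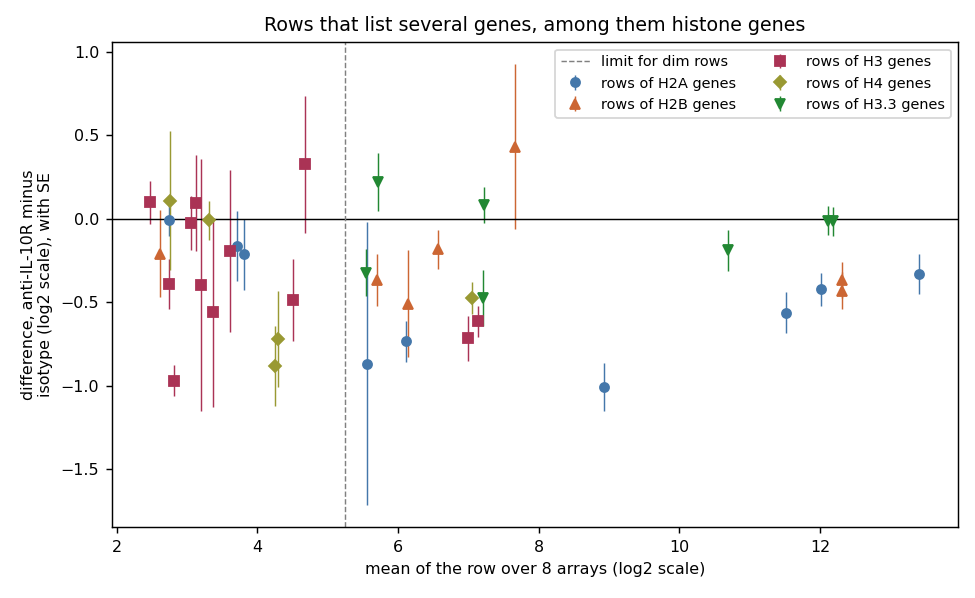
Rows that list several genes, among them genes of the core histones or H3.3, with the mean over the 8 arrays (horizontal axis, log2 scale) and the difference, anti-IL-10R minus isotype (vertical axis, log2 scale, bars are SE), coloured by family; the dashed line is the limit for dim rows. The rows of H3.3 lie between −0.47 and 0.22, and the tested rows of H2A between −1.01 and −0.33. The SE are from the fit of all rows without the limit.

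Because the copies are near-identical, a probe set named for 1 cluster gene may also read its copies, so differences between single members of a family are uncertain. Levels of different genes are not compared, since each row has its own probes. The mean of the 16 tested cluster genes was 8.15, 8.45, 8.22 and 8.32 in isotype replicates 1 to 4 and 7.75, 7.58, 7.46 and 7.44 in anti-IL-10R replicates 1 to 4. The lowest isotype array, replicate 1, lay above the highest anti-IL-10R array. For the 5 tested variants the means were 9.07 to 9.19 and 8.87 to 8.95. The distance between these means is not shared evenly. H2ax differed by −0.64, H2az1 by −0.30, H1f8 by −0.16, H2az2 by −0.03 and Macroh2a1 by 0.05.

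A list of genes bears on histone expression. It holds the activators of cluster transcription and the machinery that cuts and binds the stem-loop end of the RNA; 18 of 21 genes were tested. Of them 1 fell and none rose, beside 1.3% and 1.23% of all tested genes, and the median difference was −0.17. Differences were below 0 in 15 of the 18, beside 45.3% of all tested genes, and 4 had groups apart with anti-IL-10R lower, beside 5.99%. Cdk2, the kinase that with cyclin E activates histone transcription through Npat, read 8.69, 8.68, 8.81 and 8.70 in the isotype and 8.29, 7.99, 8.12 and 7.55 in the anti-IL-10R arrays. It fell by 0.74 ± 0.15 (limma adjusted p = 0.0438). Slbp, the protein that binds the stem-loop, read 9.78, 9.50, 9.62 and 9.64 against 9.45, 9.12, 9.09 and 9.21. Its groups did not overlap, and its difference of −0.42 ± 0.12 did not pass (adjusted p = 0.0891). Npat, the coactivator at histone clusters, differed by −0.11 ± 0.13 (adjusted p = 0.675). Snrpd3, a core protein that the U7 particle of histone RNA processing shares with splicing particles, differed by −0.36 ± 0.12 (adjusted p = 0.133).

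The next list holds chaperones that carry new histones to replicated DNA. Of 17 tested genes, 1 fell and none rose, beside 1.3% and 1.23% of all tested genes. The median was −0.15, and 15 differed below 0, while 45.3% of all tested genes differed below 0. Chaf1a, the large subunit of the chromatin assembly factor CAF-1, read 8.46, 8.32, 8.40 and 8.38 against 7.48, 7.46, 7.60 and 6.88. The isotype arrays were close together and all above the anti-IL-10R arrays, and the fall was 1.04 ± 0.16 (adjusted p = 0.0213). Asf1b, a carrier of H3 and H4, differed by −0.58 ± 0.13 (adjusted p = 0.0508), and Hat1, which acetylates newly made H4, by −0.43 ± 0.11 (adjusted p = 0.0633). Without isotype replicate 1, whose mean over this list was 8.57 against 9.07 to 9.21 in the other isotype arrays, 6 members were called lower, beside 5.9% of all tested genes, and the median was −0.32.

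The list of factors that deposit or remove variants also holds Cenpa, itself an H3 variant. Genes of this list differed in both directions. Of 12 tested, 1 fell and none rose, beside 1.3% and 1.23% of all tested genes. Differences were above 0 in 9, beside 54.7% of all tested genes, with a median of 0.10. Anp32e, which removes H2A.Z from nucleosomes, read 7.46, 7.79, 7.65 and 7.92 against 7.12, 7.16, 6.89 and 6.72, and fell by 0.74 ± 0.14 (adjusted p = 0.0371). Ubn2, a subunit of the HIRA complex that deposits H3.3, differed by 0.44 ± 0.10, with 8.47 to 8.65 over the isotype arrays and 8.90 to 9.09 over the anti-IL-10R arrays (adjusted p = 0.0518). Atrx, which deposits H3.3 with Daxx, differed by 0.39 ± 0.13 (adjusted p = 0.126). Without isotype replicate 1 the median was 0.050, and 2 members, Anp32e and Cenpa, were called lower and 1 higher. Of all tested genes, 5.9% were then called lower and 3.35% higher. The list mean differed by 0.053 over all arrays and by −0.041 without that array.

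Cell cycle genes were also among those that fell, beside 1.3% of all tested genes called lower and 5.9% without isotype replicate 1. Of 26 tested S phase genes, 5 fell and none rose, with a median of −0.62, and 24 were called lower without isotype replicate 1. Ccne1 encodes cyclin E1, which drives entry into S phase, and fell by 0.71 ± 0.11 (adjusted p = 0.0227). Rrm2 and Tyms, enzymes that supply nucleotides for DNA synthesis, fell by 0.86 ± 0.15 (adjusted p = 0.0294) and 0.79 ± 0.15 (adjusted p = 0.0334). Of 17 tested genes of G2 and mitosis, 10 fell and none rose, with a median of −0.65, and 15 were called without isotype replicate 1. With any other single array left out, 0 or 1 gene of each of these 2 lists was called lower. The share of all tested genes called lower was then 0.00832% to 0.316%. Plk1, Nusap1 and Ube2c, which act in mitosis, fell by 0.84 ± 0.11, 0.65 ± 0.12 and 0.66 ± 0.12. The part of these genes' change in that of the histones was not tested.

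**Figure D4:**
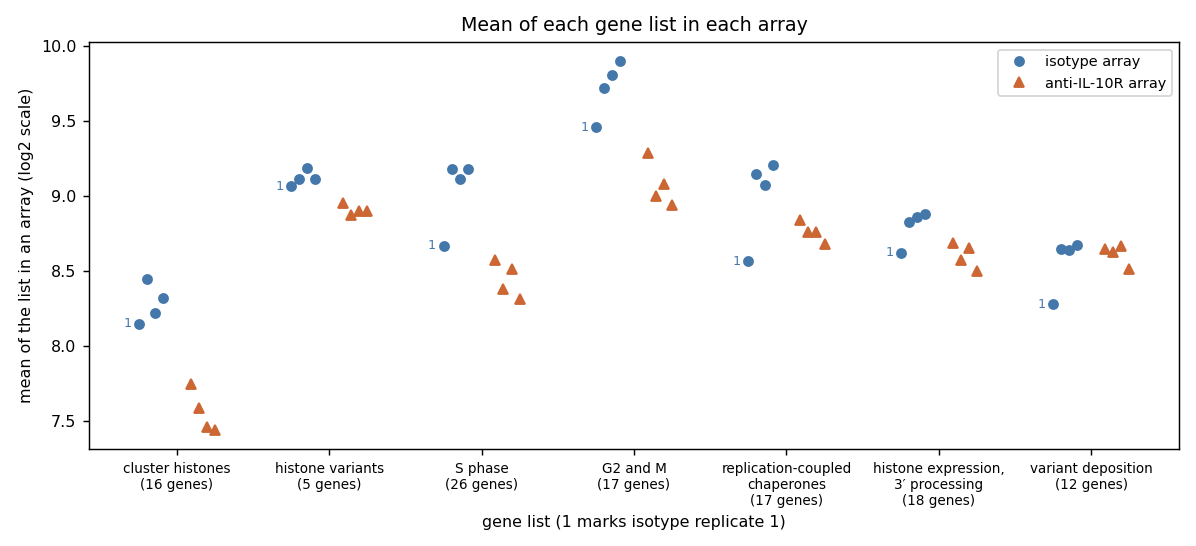
Mean of each gene list in each array (vertical axis, log2 scale), circles for isotype and triangles for anti-IL-10R arrays, with isotype replicate 1 marked. The groups are apart for the cluster histones (8.15 to 8.45 and 7.44 to 7.75), the variants, S phase (8.67 to 9.18 and 8.31 to 8.57) and G2 and M (9.46 to 9.90 and 8.94 to 9.29), and overlap for the chaperones, the expression list and variant deposition; for the chaperones and the expression list the array that overlaps is isotype replicate 1, and the other isotype arrays (9.07 to 9.21 and 8.82 to 8.88) lie above the anti-IL-10R arrays (8.68 to 8.84 and 8.50 to 8.69).

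Marker levels of the cells that the sort could hold were set beside these results. All 8 genes of the sorted T cells were above the limit for dim genes, none passed, and 5 had groups apart with anti-IL-10R higher, a separation seen in 9.32% of all tested genes. Isotype arrays had means of 10.63 to 10.93 over these genes and anti-IL-10R arrays means of 11.05 to 11.12. Of 12 measured B cell genes, 8 lay below the limit, among them Pax5, Ms4a1 and Cd22, and none of the 4 tested passed. The mean over the 12 was 4.84 to 5.43 over the isotype arrays and 4.85 to 5.04 over the anti-IL-10R arrays. With this mean as a covariate in the fit, H1f1 alone was called lower, of the histone genes and of all 12019 genes tested (0.00832%), and the median of the tested cluster genes was −0.76. None of the tested genes of myeloid cells (4 tested of 11 measured), erythroid cells (2 of 4), NK cells (1 of 3) or CD4 and regulatory T cells (3 of 5) passed either. Their list means ran from 4.67 to 5.29, 5.50 to 5.91, 5.95 to 6.64 and 5.92 to 6.43 over the isotype arrays, with isotype replicate 1 the highest each time. Over the anti-IL-10R arrays they ran from 4.83 to 4.95, 5.38 to 5.66, 6.11 to 6.42 and 6.00 to 6.21. Cd4 itself lay below the limit for dim genes, with its highest value, 5.46, in isotype replicate 1. The part of other cells in the histone differences was not tested beyond these values.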

How the data were processed

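Expression was measured in 8 sorted T cell samples, 4 per group, on Mouse Gene 2.0 ST arrays with 1 sample each. The deposited values are log2 values, 1 per transcript cluster and array, as their range of 1.57 to 13.89 shows. Per the submitters' processing notes the authors used Affymetrix Power Tools. Its version, how probes were summarised and how arrays were normalized are not given in the sources available for this work. Array medians lay between 5.19 and 5.31. Detection per probe is not given, since scanner files were not used.

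Of 41345 rows, 23521 have 1 gene symbol in the platform annotation, 1814 have several, and 16010 have no entry there and are unnamed here. The rows of 1 symbol cover 22180 genes. The 12019 genes whose mean reached 5.24, the median over all rows, were tested. Differences are from limma 3.58.1 (R 4.3.3), fitted to all 8 arrays with no covariate and moderated by eBayes, with two-sided p-values adjusted by Benjamini-Hochberg over all tested genes. Tables and promoter searches were made in Python 3.11.15. Groups and replicate numbers come from the sample descriptions, which name no batch. The labels do not say that each array is a separate animal, so p-values reflect only how far these arrays spread, and their number limits the precision.

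The histone genes and gene lists were chosen with earlier results of these data known. Named are the members past the threshold, all linker histones, the variants, in each core family the tested member with the smallest p and that with the highest difference, those next to the limit for dim genes, Slbp and Npat, and in each list up to 3 genes with the smallest p. Other names were chosen after their values were seen. In data simulated with the spread of this comparison, with 200 of 12019 genes changed, 86% of the 2-fold and 100% of the 4-fold changes were called, and 4.62% of the calls were false. The simulated noise was independent between genes and equal in all arrays, with no array apart like isotype replicate 1. These rates therefore need not hold for the real arrays. Alternatives were no or a stricter limit for dim genes (6.97), averaging a gene's rows, quantile normalization, median centring, array weights (statmod 1.5.0), a variance model with trend and robust fit, a replicate block, a covariate for the mean of the B cell markers, other thresholds and each array left out. Protein sequences were not used here.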

Additional observations from a re-analysis of the deposited data

Results flagged for a closer look

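Single arrays stood apart within their group for 4 genes, by the gap of the highest or lowest array to its nearest neighbour relative to the range of the group. A test of this kind marks about 1 group in 20 by chance, and 114 groups of 4 arrays were examined. H4c12 read 12.67 in isotype replicate 1, above 12.60 to 12.61 in the other isotype arrays. H2bc3 read 11.55 in isotype replicate 2, below 11.76 to 11.79 in the others. Tyms read 10.06 in isotype replicate 1, above 9.47 to 9.55 in the others. Atrx read 8.89 in anti-IL-10R replicate 3, above 8.64 to 8.68 in the others.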

How the results depend on the processing

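Over the alternatives the 11 histone genes that passed kept their sign in every fit run. All 11 passed after quantile normalization, with array weights, with a gene's rows averaged and with the trended and robust variance model. Of the cluster genes, 6 were called lower with no limit for dim genes, 5 after centring of each array, and 1 with the replicate block, with a covariate for the B cell markers and at an adjusted p below 0.01. No variant (0) passed in these 5 fits. Of the histone expression list 0 passed without the limit, after centring, with the block and with the covariate, and 4 with array weights. Of the chaperones, 3 passed with the stricter limit, 4 after quantile normalization, 2 with the mean of all rows, 3 with the trended model, 6 with array weights, and 0 with the block or the covariate. Of the variant deposition list, 0 were lower without the limit, after centring, with the block or with the covariate, and 2 with array weights; 1 was higher with the stricter limit, the trended model and array weights. S phase genes called lower numbered 3 without the limit, 13 with the stricter limit, 20 after quantile normalization, 3 after centring, 11 with the trended model, 24 with array weights and 0 with the block or the covariate. G2 and M genes numbered 3 without the limit, 3 after centring and 0 with the block or the covariate. Of all genes, 0.352% were called lower without the limit and 0.00832% with the covariate. For the other settings in this paragraph that share is not given. Calls that changed or persisted there are therefore not read as a result about the histone genes or a list. The median of the cluster genes was −0.48 without the limit and −1.06 with the stricter one, and that of the variants −0.034 without the limit and −0.22 after quantile normalization. A changed limit changes which genes enter a median, so these medians cover other sets than the main fit. H1f1, at a mean of 6.21, was not tested with the stricter limit.

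With each array left out in turn, the counts called lower ranged from 1 to 10 for cluster genes, 0 to 1 for variants, 0 to 2 for histone expression, 0 to 6 for chaperones, 0 to 2 for variant deposition (0 to 1 higher), 0 to 24 for S phase and 0 to 15 for G2 and M genes. The medians ranged from −0.77 to −0.65 and from −0.25 to −0.14. The sign turned for genes that had not passed. With the covariate, H1f3 differed by −0.16, H2bc21 by −0.32, H4c8 by −0.018 and Macroh2a2 by −0.12. With array weights, H2bc1 differed by 0.13, H2bc21 by −0.15 and Macroh2a1 by −0.041. After quantile normalization H2bc1 differed by 0.028 and Macroh2a1 by −0.012, and after centring Macroh2a2 by −0.033. With 1 array left out, the ranges were −0.069 to 0.16 for H1f3, −0.19 to 0.054 for H2az2, −0.20 to 0.19 for H2bc1, −0.087 to 0.60 for H2bc21, −0.057 to 0.29 for H4c8, −0.055 to 0.11 for Macroh2a1 and −0.24 to 0.21 for Macroh2a2. The cause was not tested for any of these.

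The replicate block left 1 cluster gene called lower. Deviations of arrays with the same number correlated at −0.05, 0.12, 0.02 and −0.16 over genes. These values show no pairing by number, and they cannot exclude one, because isotype replicate 1 shifts the deviations of all isotype arrays. The median difference of all tested genes was −0.04 after quantile normalization and −0.02 after centring. Near-identical copies, shared rows and 4 arrays per group limit what is said of single genes.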
